A study of Homo sapiens with 8 samples.

Results

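Pull-down RNA from ChIRP, in which probes to an RNA are used to isolate it from fixed cells with what is bound to it, was compared between the 4 libraries labelled MOLM13 and the 4 labelled OCI-AML4, which together are all 8 libraries of the study. Members were chosen by the cell line in the sample titles, and each library labelled MOLM13 was paired with the library labelled OCI-AML4 of the same edit. The titles also number the libraries, KO1 or CBE1 in all those labelled MOLM13 and KO2 or CBE2 in all those labelled OCI-AML4. What this number stands for is not stated, and it cannot be told apart from the label. Both are established human acute myeloid leukaemia lines. The stated media differ, an RPMI medium for MOLM13 and MEM alpha for OCI-AML4, so the medium cannot be told apart from the label. The 4 pairs were KO aimed at AAVS1, KO aimed at HOTSCRAMBL, and CBE aimed at each of these, all collected on day 3 after editing. KO stands for nucleofection of Cas9 ribonucleoprotein, which cuts DNA, and CBE for a cytosine base editor, which changes C to T without cutting both strands. HOTSCRAMBL is a long non-coding RNA and AAVS1 the control site, whose libraries carry the genotype WT, so every library had been nucleofected and none was left unedited. The RNA bound by the probes is not stated and no input library was used here, so a value is an amount in a pull-down and not a level in the cell. Fewer cells of a kind, less RNA per cell and weaker capture cannot be told apart in such values. The cell line tag of every library reads only leukaemia, and no library of known identity was at hand, so the line names are used as labels.

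Small non-coding RNAs fall into families with set tasks. 5S ribosomal RNA is part of the large ribosomal subunit, 7SL RNA is the scaffold of the signal recognition particle, and 7SK RNA holds the elongation factor P-TEFb in an inactive complex. U4 and U5 small nuclear RNAs (snRNAs) enter the spliceosome together and carry a ring of Sm proteins on a uridine-rich site. C/D box and H/ACA box small nucleolar RNAs (snoRNAs) guide 2'-O-methylation and pseudouridylation of ribosomal RNA and are mostly cut out of introns of host genes, and small Cajal body RNAs guide the same changes in snRNAs. RMRP is the RNA of RNase MRP, an enzyme that cuts ribosomal RNA precursors. 5S, 7SL, 7SK and RMRP are made by RNA polymerase III, whereas U4, U5 and the intronic snoRNAs derive from RNA polymerase II transcripts. Many of these genes have near-identical copies in the genome, and reads that fit several places were not counted.

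The sequences of 6 small RNAs that differed between the labels are shown first, 2 that were higher and 4 that were lower under MOLM13. They are GENCODE v29 transcripts on GRCh38, written 5' to 3' with T for U. The U4 genes are shown because they are near-identical copies that were counted apart. They lie on chromosome 12, at chr12:120293097-120293237 (RNU4-1) and chr12:120291763-120291903 (RNU4-2) on the minus strand, and overlap no annotated gene. Capitals mark the letters AATTTTT of the Sm site.
RNU4-1: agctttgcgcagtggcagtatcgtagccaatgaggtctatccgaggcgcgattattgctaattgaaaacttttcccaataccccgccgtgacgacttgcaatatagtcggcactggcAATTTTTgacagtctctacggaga
RNU4-2: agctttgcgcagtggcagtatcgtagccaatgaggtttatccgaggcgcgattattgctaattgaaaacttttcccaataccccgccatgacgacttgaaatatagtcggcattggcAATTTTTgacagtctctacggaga
RNU4-1 and RNU4-2 are identical at 137 of 141 aligned bases (97.2%), and the U5 genes RNU5A-1 and RNU5B-1 at 109 of 116 (94%). The letters AATTTTT stood in 33 of the 925 tested small RNAs with a sequence (3.57%) on the transcribed strand and in 27 (2.92%) on the other strand.

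Copies of the 5S gene are alike over long stretches. RNA5SP149 lies between genes on chromosome 3, RNA5SP145 in an intron of MED12L and RNA5SP429 in an intron of CDH1. Each shares a long run of bases with the full gene RNA5S9, 83 bases for the former pair and 76 for RNA5SP429. A read inside such a run fits several genes, so only reads that reach the differing bases could be counted for one of them.

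Of the small RNAs that were lower under the MOLM13 label, 3 H/ACA box snoRNAs are shown for their box motif and RMRP for its abundance. SNORA49 lies at chr12:132031224-132031359 on the plus strand in an intron of EP400, and SNORA12 at chr10:100237156-100237302 on the minus strand in an intron of CWF19L1. SNORA73B lies at chr1:28508559-28508762 on the plus strand in introns of RCC1 and SNHG3, and RMRP at chr9:35657754-35658017 on the minus strand, overlapped by a lincRNA record of the same name and by no other gene. Capitals mark ACA within the last 6 bases of the snoRNAs, and RMRP is given without capitals.
SNORA49: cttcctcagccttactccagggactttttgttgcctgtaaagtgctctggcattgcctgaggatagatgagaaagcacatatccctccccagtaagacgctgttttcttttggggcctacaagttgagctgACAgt
SNORA12: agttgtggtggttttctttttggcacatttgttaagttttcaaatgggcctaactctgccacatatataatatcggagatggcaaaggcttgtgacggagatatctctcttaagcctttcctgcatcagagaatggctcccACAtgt
SNORA73B: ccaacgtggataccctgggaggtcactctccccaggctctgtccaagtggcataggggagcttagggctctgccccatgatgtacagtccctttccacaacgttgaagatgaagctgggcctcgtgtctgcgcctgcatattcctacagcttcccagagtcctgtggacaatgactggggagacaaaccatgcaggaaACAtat
RMRP: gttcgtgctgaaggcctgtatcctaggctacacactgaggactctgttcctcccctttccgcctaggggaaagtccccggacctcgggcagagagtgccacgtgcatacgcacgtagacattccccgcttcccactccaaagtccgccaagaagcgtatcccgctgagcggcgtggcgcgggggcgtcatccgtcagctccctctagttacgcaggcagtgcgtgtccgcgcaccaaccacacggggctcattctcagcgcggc
ACA stood in the last 6 bases of 61 of 71 H/ACA box snoRNAs (85.9%) and of 110 of the 925 small RNAs (11.9%), and of 106 (11.5%) on the other strand.

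Total counts ran from 20548300 to 37970163 under the MOLM13 label and from 23531833 to 26684823 under the OCI-AML4 label, and 21945 to 26083 genes had a count. Both sets carried myeloid marker RNA at like levels, with CD33 between 149.2 and 196.3 CPM under MOLM13 and between 135.4 and 186.2 CPM under OCI-AML4, where CPM is the TMM-scaled count relative to library size. FLT3, a receptor kinase of leukaemic blasts, lay between 187.3 and 276.4 CPM and between 173.2 and 263.3 CPM. CD34 and KIT reached at most 1.7 CPM in any library, PROM1 and ERG had no count, and defining markers of T, B and erythroid cells (CD3E, CD79A, HBB) were at or near 0. Across 6623 protein-coding genes of above-median level, libraries of the same edit correlated at a median r of 0.966 although their labels differ, and libraries of different edits at 0.893 under the same label and 0.889 under different labels. The ranges overlapped, at 0.953 to 0.973, 0.872 to 0.974 and 0.865 to 0.97. Across 927 tested small RNAs the medians lay closer, at 0.745, 0.734 and 0.722. These correlations across genes describe the libraries, and genes are not independent replicates. Whether the labels stand for different cell lines was not tested. The alignment names number the MOLM13-labelled libraries first and the OCI-AML4-labelled ones after them, so an order of handling cannot be told apart from the label.

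Between the labels 114 of 23355 tested autosomal and mitochondrial genes (0.488%) passed an adjusted p of 0.05 in edgeR's quasi-likelihood test with the edit as a block, 54 of them higher (0.231%) and 60 lower (0.257%) under MOLM13. All 114 moved the same way in 4 of 4 pairs, against 16.4% of all tested genes. They were picked by a test on these same pairs, so this agreement is no separate support. The same holds for groups of called genes that do not overlap, here and below. PDGFC had no count in either HOTSCRAMBL KO library, and its sign there comes from the prior count alone. Over all tested genes the label differences agreed little from pair to pair, at a median r of 0.0167 with 50% of genes alike in sign. The values were 0.0635 and 49.3% over tested small RNAs, and 0.14 and 56% over above-median protein-coding genes. Without adjustment 2146 genes (9.19%) had a p under 0.05, and in 596 (2.55%) the libraries of the labels did not overlap. The same test of HOTSCRAMBL against AAVS1, averaged over editors, passed 2889 genes (12.4%). By class, 25 of 927 small RNAs (2.7%), 83 of 13247 protein-coding genes (0.627%) and 6 of 9181 other RNAs (0.0654%) were called. The shares at an unadjusted p under 0.05 had another order, 9.06%, 11.1% and 6.38%, and the difference between classes was not tested. Of the 6623 well-measured protein-coding genes, 1 (0.0151%) differed at least 2-fold between the labels and 280 (4.23%) between HOTSCRAMBL and AAVS1. The count of calls fell to between 26 and 65 when any 1 library was left out, which also takes its partner out of the comparison, and to 2 (RN7SKP255 and RNU5B-1) with the label as the only term. DESeq2 called 695 genes and limma-voom 256, and p-values measure only the spread between these libraries.

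In above-median protein-coding genes the median difference per autosome ran from -0.04 on chromosome 19 to 0.06 on chromosome 21 on the log2 scale, a range of 0.103. Only PHC1, a Polycomb protein gene named here after its values were seen, was on in all 4 libraries of 1 label and without a count in the other 4, out of 18933 protein-coding genes. PHC1 had 24, 14, 42 and 11 counts under OCI-AML4 and 0 in each library labelled MOLM13, a difference that did not pass the test (adjusted p = 0.441). Counts are of read ends, so fewer fragments lie behind them. The same rule found 4 genes for HOTSCRAMBL against AAVS1 and 1 for KO against CBE.

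Among small RNAs, 19 were higher under MOLM13 (2.05% of those tested) and 6 lower (0.647%), and the 2 directions held different families. The 19 were 10 5S copies, 3 of 7SL, 1 of 7SK, 4 U4 or U5 genes and 1 Cajal body RNA. The 6 were RMRP, 2 C/D box and 3 H/ACA box snoRNAs. Those higher rose by a median of 1.70 on the log2 scale (3.24-fold), 14 of them at least 2-fold, and the libraries of the labels did not overlap for 14, against 6.15% of tested small RNAs (9.06% had an unadjusted p under 0.05). Those lower fell by a median of 0.59 on the log2 scale, none of them 2-fold, and none had libraries that did not overlap. Leaving out 1 library at a time left between 16 and 18 small RNAs called, and 15 of the 25 passed in each of the 8 such fits.

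**Figure D1:**
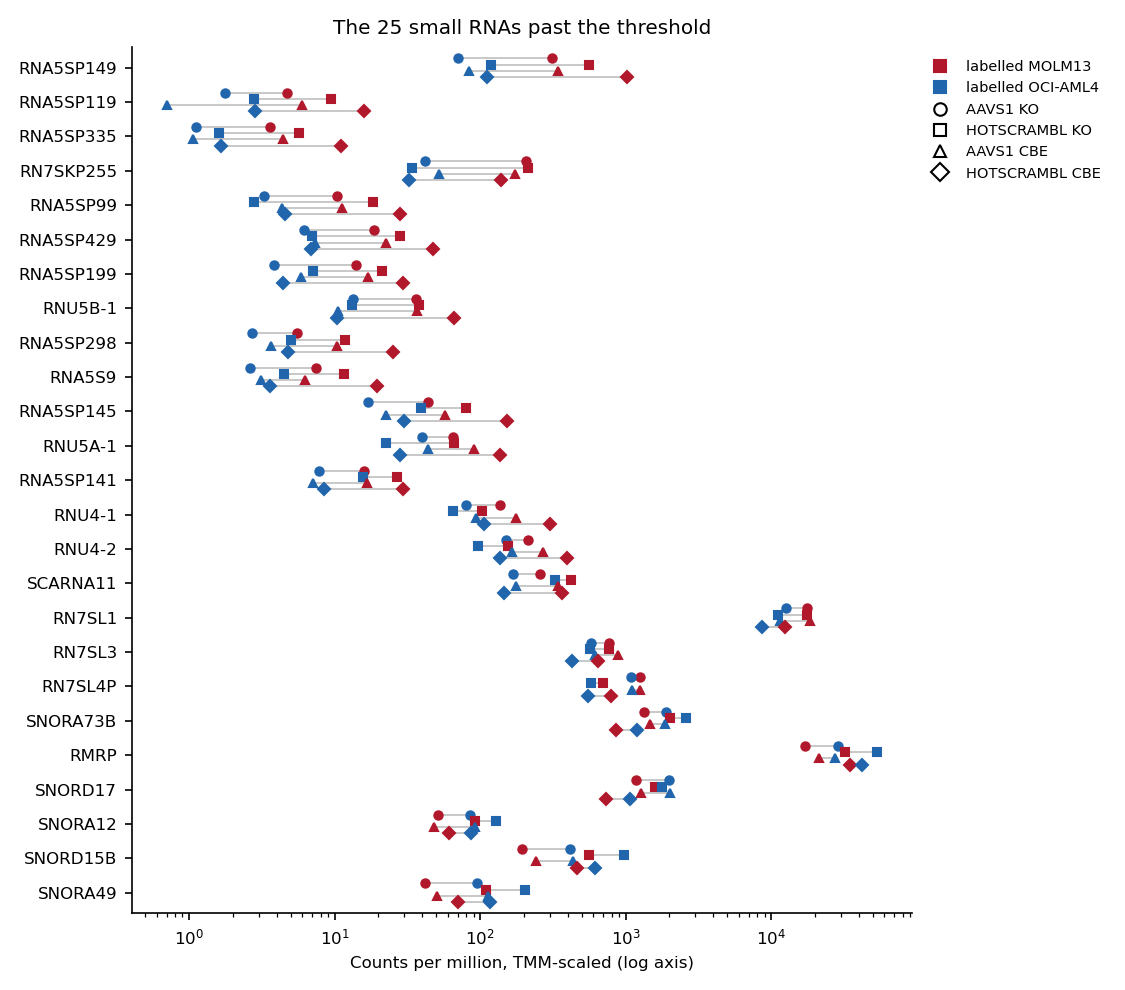
Level of each of the 25 small RNAs that passed the threshold, in CPM on a log axis, with 1 row per RNA ordered by its log2 difference. Each grey line joins the 2 libraries of an edit, red for the MOLM13 label and blue for the OCI-AML4 label, and in the upper 19 rows every red point lies to the right of its partner.

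Summed over families, the share of counts moved in opposite directions. 5S copies took 0.102% ± 0.0484 (SD, n = 4) of autosomal and mitochondrial counts under MOLM13 and 0.0358% ± 0.00291 (SD, n = 4) under OCI-AML4, a 2.66-fold mean ratio over pairs. 7SK copies took 0.0322% and 0.0182% (1.77-fold) and spliceosomal snRNAs 0.083% and 0.048% (1.68-fold). In these 3 families the lowest MOLM13-labelled library lay above the highest OCI-AML4-labelled one. Without RN7SKP255, its most abundant gene, the 7SK family took 0.0134% and 0.014%, with 1 pair higher and 3 lower. Without RNA5SP149 the 5S family took 0.0463% and 0.0261% (1.69-fold), still without overlap. 7SL copies were far more abundant, at 1.91% ± 0.386 and 1.31% ± 0.278 (SD, n = 4 each), and Cajal body RNAs stood at 0.137% and 0.109%; both were higher in 4 of 4 pairs, with groups that overlap. RMRP took 3.82% ± 0.953 under OCI-AML4 and 2.66% ± 0.73 under MOLM13 (SD, n = 4 each), C/D box snoRNAs 0.29% and 0.201%, and H/ACA box snoRNAs 0.284% and 0.213%, each lower in 4 of 4 pairs. The RNase P RNA gene RPPH1, grouped with RMRP, had no count in any library. MicroRNA genes, at 0.0396% and 0.0411%, and mitochondrial transfer RNAs, at 0.07% and 0.0749%, had pairs in both directions.

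With 4 pairs the exact within-pair permutation test, two-sided, cannot reach the 0.05 threshold, and each of the families with 4 pairs in 1 direction gave the smallest p that this design allows (0.205 after Benjamini-Hochberg adjustment over 18 families). The share of all small RNA was 5.45% ± 0.53 under MOLM13 and 6.04% ± 0.834 under OCI-AML4 (SD, n = 4 each), a mean pair difference of -0.59 points, lower in 4 of 4 pairs. Without RMRP it was 2.79% and 2.22%, higher by 0.577 points and in 4 of 4 pairs. The sign of the total thus changed with RMRP, which had a higher level than RN7SL1 in each OCI-AML4-labelled library. The share of protein-coding counts was 84.7% ± 1.95 and 84.5% ± 1.46 (SD, n = 4 each), with 2 pairs in each direction.

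**Figure D2:**
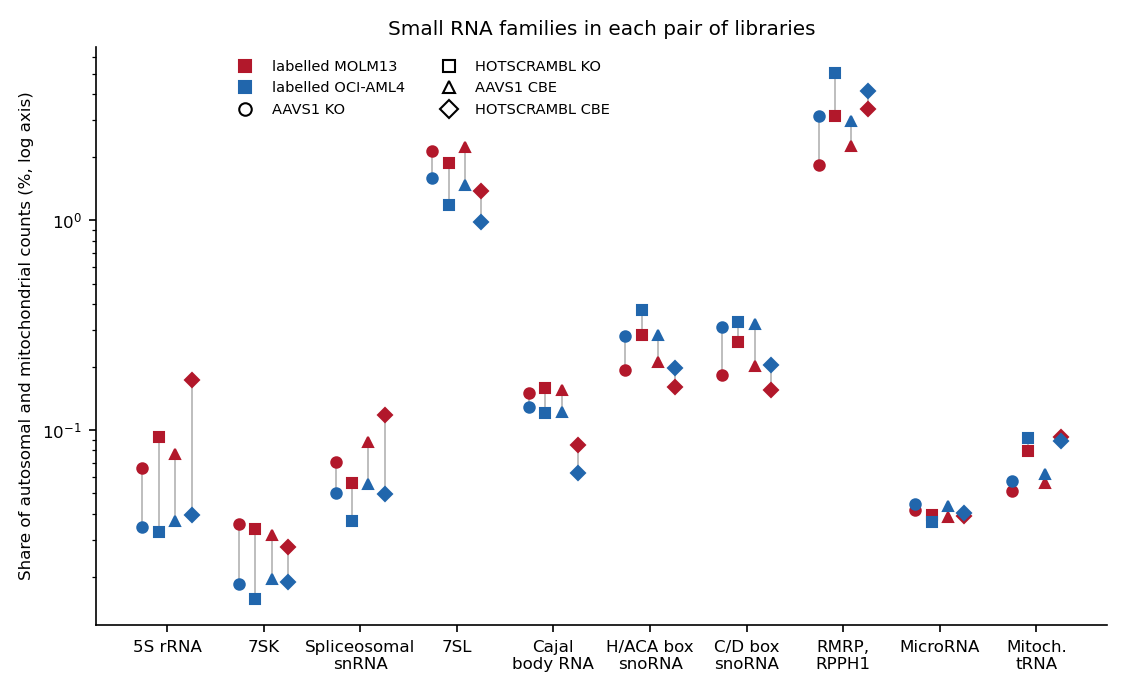
Share of autosomal and mitochondrial counts, in percent on a log axis, taken by 10 small RNA families in the 8 libraries, with grey lines joining the libraries of an edit. Red (MOLM13 label) lies above blue (OCI-AML4 label) in every pair of the first 5 families and below it in every pair of the next 3.

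RNA5SP149 was the most abundant 5S copy under MOLM13, though not under OCI-AML4, and had the smallest p of all genes. In the order AAVS1 KO, HOTSCRAMBL KO, AAVS1 CBE, then HOTSCRAMBL CBE, kept for all values below, it stood at 312.4, 562.8, 344 and 1016 CPM under MOLM13 and at 70.7, 118, 83.4 and 110.9 CPM under OCI-AML4. The lowest of the former lay well above the highest of the latter, and the log2 difference was 2.45 ± 0.126 (SE), 5.45-fold, with an adjusted p of 2.8e-12. RNA5SP145 stood at 44.1, 79.6, 57.5 and 152 CPM against 16.9, 38.9, 22.4 and 30 CPM (log2 difference 1.61 ± 0.182, SE). RNA5SP429 stood at 18.7, 28, 22.4 and 47.6 CPM against 6.16, 6.97, 7.31 and 6.93 CPM (2.08 ± 0.275, SE). In all 3 the groups did not overlap, and HOTSCRAMBL CBE under MOLM13 was the highest library. RNA5SP149 passed in each of the 8 fits without a library and in DESeq2, but not in limma-voom (adjusted p = 0.0828). RNA5S9, an annotated full gene, stood at 7.45, 11.6, 6.24 and 19.6 CPM against 2.64, 4.47, 3.11 and 3.62 CPM (1.70 ± 0.389, SE; adjusted p = 0.0431) and did not pass in any of the 8 fits without a library.

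RNA5SP199, RNA5SP99, RNA5SP119, RNA5SP298, RNA5SP141 and RNA5SP335 also rose, by 1.22 to 2.20 on the log2 scale, at mean levels of 6.2 to 22.2 CPM under MOLM13. Of the 8 fits without a library RNA5SP199 and RNA5SP99 passed in 4 and the other 4 copies in 0, and RNA5SP335 did not pass in limma-voom (adjusted p = 0.16). Over the family, 53 of 78 tested copies had a positive difference (67.9%, against 49.3% of small RNAs), 28 were higher in 4 of 4 pairs (35.9%, against 8.52%) and 4 lower in 4 of 4, and the median was 0.91 against -0.01 over all tested genes. Only these 78 of 493 copies passed the count filter, which a copy can do through libraries of 1 label alone. The copies are also alike in sequence and no independent members, so these shares and the median are descriptive. The 10 called copies were 86.7% to 100% identical to RNA5S9 (median 92.9%) and the 68 not called 68.8% to 100% (median 85.1%). RNA5SP202, named after its values were seen, is 98.3% identical and stood at 150.4 and 125.4 CPM in the mean, the latter above the 95.8 CPM of RNA5SP149, with a difference of 0.22 (adjusted p = 0.652). Leaving out the MOLM13-labelled HOTSCRAMBL CBE library gave the lowest median of the family, 0.66, and HOTSCRAMBL libraries alone the highest, 1.57.

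RN7SKP255, a copy of 7SK RNA that is 93.9% identical to RN7SK over 297 aligned bases, lies on chromosome 14 opposite an intron of a long non-coding RNA. It stood at 205.8, 211.5, 174.3 and 139.9 CPM under MOLM13 and at 41.6, 34.2, 52.5 and 32.3 CPM under OCI-AML4. The groups did not overlap, and the difference of 2.16 ± 0.131 (SE), 4.48-fold, was 1 of the 2 that also passed without the edit as a block (adjusted p = 0.000155, edgeR). It was the only 7SK gene of 51 tested to pass in edgeR, and the median of the family was 0.05. DESeq2 called 1 gene of the family higher and 2 lower under MOLM13, and limma-voom 1 higher and 1 lower. For RN7SKP255 the MOLM13-labelled HOTSCRAMBL CBE library was the lowest of its group, whereas it was the highest for RNA5SP149, RNA5SP145 and RNA5SP429.

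RN7SL1, a main 7SL gene on chromosome 14, was among the most abundant RNAs of the table, at 17706, 17490, 18437 and 12401 CPM under MOLM13 and 12664, 11070, 11532 and 8670 CPM under OCI-AML4. The difference was 0.58 ± 0.0426 (SE), 1.5-fold, and only the HOTSCRAMBL CBE library kept the groups from separating. RN7SL3, identical to RN7SL1 at 292 of 299 bases (97.7%), stood at 770.3, 765.3, 883.1 and 649.1 CPM against 577.6, 566.6, 614 and 427.6 CPM, without overlap (0.49 ± 0.065, SE). RN7SL4P, 91.6% identical, rose by 0.29 ± 0.0655 (SE) and did not pass in any of the fits without a library. The family median over 190 tested copies was 0.12. RN7SL1 lay at an adjusted p of 0.0778 in limma-voom while RN7SL3 passed there.

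U4 and U5 rose together. RNU5B-1 stood at 36.5, 38, 37 and 66.1 CPM under MOLM13 and at 13.4, 13.1, 10.5 and 10.4 CPM under OCI-AML4, a difference of 1.91 ± 0.226 (SE), 3.77-fold. RNU5A-1 stood at 65.4, 65.9, 90.2 and 137.7 CPM against 39.6, 22.4, 43.5 and 28.3 CPM (1.40 ± 0.182, SE). Neither U5 gene had overlapping groups. RNU4-1 stood at 136.8, 103.1, 177.5 and 301.5 CPM against 80, 64.6, 92.9 and 106.9 CPM (1.02 ± 0.12, SE), and RNU4-2 at 214.3, 155.1, 271.9 and 396.4 CPM against 150.7, 97.3, 166.2 and 137.3 CPM (0.88 ± 0.12, SE). Both U4 genes overlapped between the groups through the HOTSCRAMBL KO library under MOLM13, and all 4 genes passed in each of the 8 fits without a library. These were the snRNAs called out of 188 tested, at a family median of 0.25. SCARNA11, a Cajal body RNA in an intron of CHD4, stood at 258, 421.3, 341.5 and 367 CPM against 167, 325.8, 177.6 and 146.7 CPM (0.81 ± 0.106, SE), and was the only one called of 14 Cajal body RNAs tested.

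On the lower side RMRP was the largest by amount. It stood at 17196, 32015, 21175 and 34873 CPM under MOLM13 and at 28848, 52972, 27518 and 41887 CPM under OCI-AML4, a difference of -0.53 ± 0.0549 (SE). The spread between edits was wider than that between labels, so the groups overlapped while each pair moved the same way, by -0.75, -0.73, -0.38 and -0.26. RMRP did not pass in limma-voom (adjusted p = 0.091).

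SNORD15B stood at 193.5, 558.5, 241.8 and 463 CPM under MOLM13 and at 415.2, 970.3, 433.6 and 616.3 CPM under OCI-AML4 (log2 difference -0.77 ± 0.0841, SE). SNORA49 stood at 41.9, 109.3, 50.8 and 70.6 CPM against 94.6, 204, 113 and 116 CPM (-0.97 ± 0.117, SE), the biggest difference on this side, 1.95-fold. SNORA73B, also known as U17, a snoRNA needed for processing of small-subunit ribosomal RNA, stood at 1330, 2017, 1459 and 856.9 CPM against 1890, 2612, 1854 and 1190 CPM (-0.42 ± 0.055, SE). In all 3 HOTSCRAMBL KO was the highest library under both labels, and the groups overlapped. SNORD17 differed by -0.53 ± 0.0707 (SE) and SNORA12 by -0.66 (adjusted p = 0.00763), and SNORA12 did not pass in any of the 8 fits without a library. SNORD17 did not pass in limma-voom (adjusted p = 0.443) or without either AAVS1 KO library (adjusted p up to 0.0699). Over the families, 48 of 67 tested C/D box snoRNAs and 48 of 72 H/ACA box snoRNAs had a negative difference (71.6% and 66.7%, against 50.7% of small RNAs), with medians of -0.25 and -0.20. Of each family 13 were lower in 4 of 4 pairs (19.4% and 18.1%, against 10.9%), and 3 and 2 higher.

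The hosts of these snoRNAs were measured as genes of their own. RPS3, the host of SNORD15B, differed by -0.27 ± 0.072 (SE; adjusted p = 0.115), EP400, the host of SNORA49, by 0.18 ± 0.0696 (SE; 0.398), and SNHG3 and RCC1, the hosts of SNORA73B, by 0.14 ± 0.0917 (SE; 0.692) and 0.08 ± 0.128 (SE; 0.912). CWF19L1, the host of SNORA12, differed by -0.26 ± 0.274 (SE; 0.837), and SNX5, in whose intron SNORD17 lies (an OVOL2 intron overlaps too), by 0.02 ± 0.0896 (SE; 0.984). None passed edgeR's quasi-likelihood test, and EP400 and SNHG3 were higher under MOLM13 in 4 of 4 pairs while their snoRNAs were lower. Of 23 listed snoRNA host genes tested, SNHG7 alone passed, lower under MOLM13. Genes of proteins that bind small RNAs gave 0 calls of 48 tested by edgeR (6 at an unadjusted p under 0.05, 3 by DESeq2 and 2 by limma-voom; median -0.07). Of 31 genes for RNA polymerase III and its factors only BDP1, a subunit of the initiation factor TFIIIB, passed: it stood at 601.1, 465, 565.3 and 411.3 CPM against 466.9, 339.2, 457.4 and 369.5 CPM (0.32 ± 0.0715, SE; adjusted p = 0.0377), and in none of the fits without a library.

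Among protein-coding genes, 33 were higher (0.249%) and 50 lower (0.377%) under MOLM13, and the sizes were small. The median of the mean level was 363.4 CPM in those called higher, 318.4 CPM in those called lower and 19.7 CPM in those not called. Shares called over all protein-coding genes are therefore no matched background for lists of abundant genes. The median called difference was 0.38 upward (1.3-fold) and -0.42 downward (1.34-fold), 5 of the 33 and 13 of the 50 had groups that did not overlap (background 2.36%), and 5 genes in all reached 2-fold. These 5 were GLRX5, lower, and PRIMPOL, MALSU1, DOHH and PDGFC, the last 4 named here after their values were seen. Leaving out 1 library left between 8 and 45 calls, the lowest without the OCI-AML4-labelled AAVS1 KO library, and 0 passed with the label as the only term. Of the 34 named genes 8 (CCR2, AEBP2, BBC3, HEBP2, EIF3J, GLRX5, KHNYN and DDIT4) passed in each of the 8 fits without a library, all of them lower under MOLM13.

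**Figure D3:**
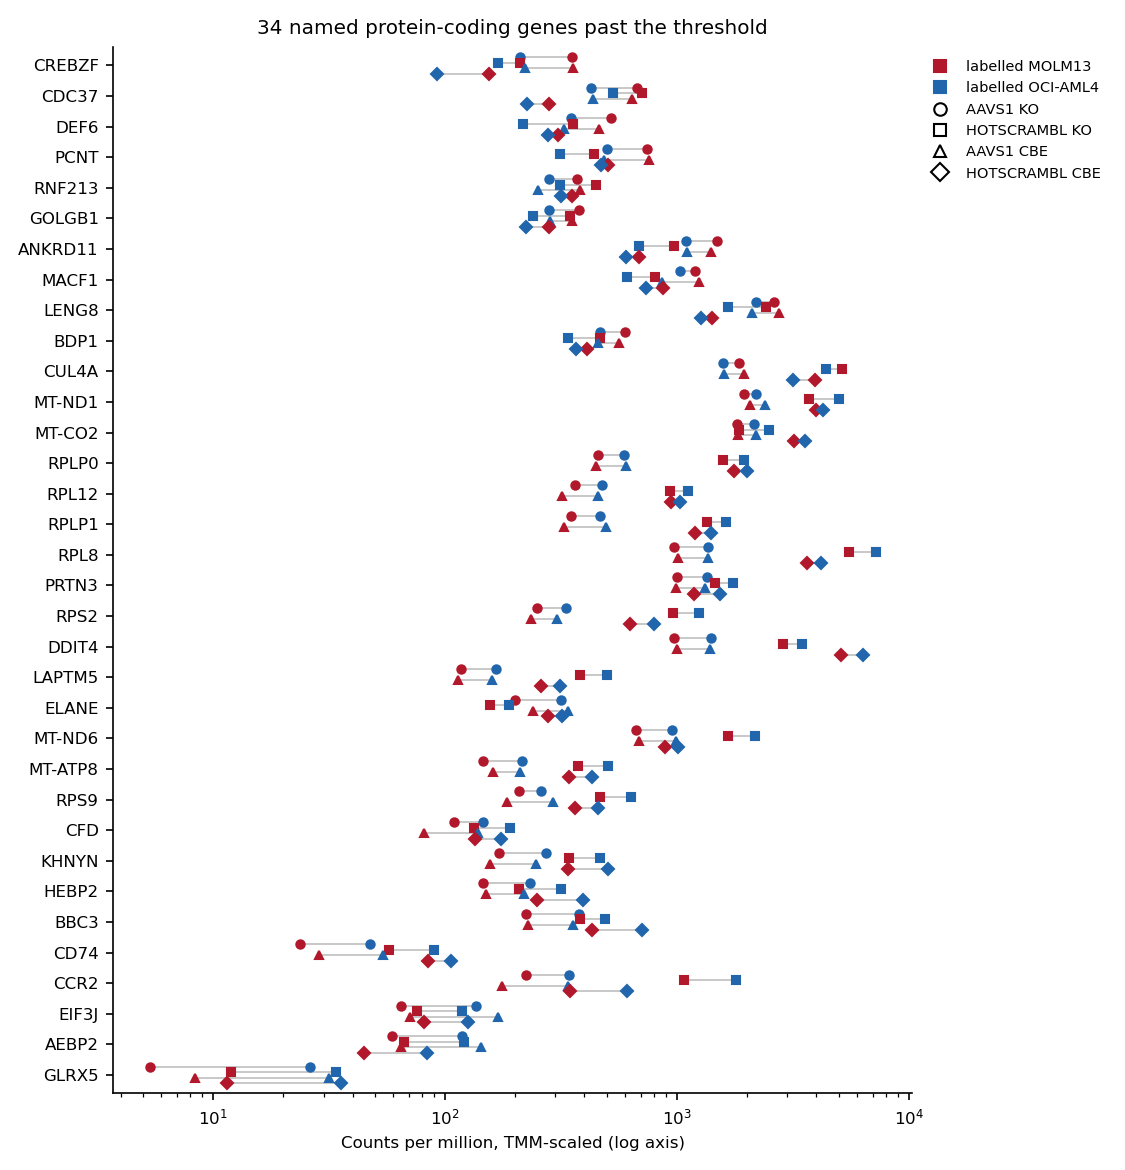
Level of 34 named protein-coding genes in CPM on a log axis, ordered by log2 difference, with grey lines joining the libraries of an edit. For the first 11 genes red (MOLM13 label) lies to the right of blue (OCI-AML4 label) in each pair, and for the other 23 to the left.

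CCR2, the receptor for the monocyte chemokine CCL2, had the smallest p of the protein-coding genes. It stood at 224.4, 1079, 176.2 and 345.8 CPM under MOLM13 and at 344.1, 1793, 339.9 and 607.8 CPM under OCI-AML4, a difference of -0.78 ± 0.0701 (SE), 1.71-fold, with an adjusted p of 1.7e-07. The HOTSCRAMBL KO pair was the highest for both labels, so the groups overlapped although the pairs differed by -0.62, -0.73, -0.95 and -0.81. CCR2 was the only one called of 7 chemokine receptor genes tested. CXCR4, the receptor for CXCL12, stood at 17, 42.7, 22 and 34.5 CPM against 18.8, 49.7, 12.3 and 29.5 CPM.

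AEBP2, an accessory subunit of the Polycomb repressive complex PRC2, stood at 59.3, 66.7, 64.9 and 44.7 CPM against 118.9, 120.9, 143.5 and 83.6 CPM, without overlap (-0.99 ± 0.118, SE). EIF3J, a subunit of the translation initiation factor eIF3, stood at 64.9, 75.7, 70.8 and 81.3 CPM against 135.7, 118.7, 168.8 and 125.5 CPM, also without overlap (-0.91 ± 0.12, SE). GLRX5, a mitochondrial glutaredoxin of iron-sulfur cluster assembly, was measured at low level, 5.33, 12, 8.37 and 11.5 CPM against 26.1, 33.9, 31.7 and 35.8 CPM (-1.79 ± 0.239, SE). In GLRX5 too the highest MOLM13-labelled library lay below the lowest OCI-AML4-labelled one. MALSU1, an assembly factor of the mitochondrial ribosome, and DOHH, which hydroxylates the hypusine precursor of eIF5A, differed by -1.75 ± 0.335 (SE) and -1.18 ± 0.239 (SE).

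BBC3, which encodes the apoptosis inducer PUMA, stood at 223.3, 382.3, 228.3 and 432.4 CPM under MOLM13 and at 378.1, 493.1, 357.9 and 705.9 CPM under OCI-AML4 (-0.62 ± 0.0771, SE). DDIT4, an inhibitor of the growth kinase complex mTORC1, stood at 977, 2876, 1002 and 5108 CPM against 1400, 3473, 1394 and 6387 CPM (-0.39 ± 0.0534, SE). HEBP2, a haem-binding protein gene, differed by -0.62 ± 0.0818 (SE), and KHNYN, a cofactor of the antiviral protein ZAP, by -0.58 ± 0.0778 (SE). All 4 were higher in HOTSCRAMBL libraries than in AAVS1 libraries under either label, and lower under MOLM13 within each pair.

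Granule protein genes of the neutrophil lineage were lower as far as they were called. PRTN3, which encodes proteinase 3, stood at 1002, 1463, 994.3 and 1191 CPM against 1356, 1756, 1320 and 1538 CPM (-0.37 ± 0.0567, SE). ELANE, neutrophil elastase, differed by -0.41 ± 0.0875 (SE), and CFD, complement factor D, by -0.52 ± 0.101 (SE) without overlap of the groups. These 3 of 13 tested passed (23.1%, against 0.377% of protein-coding genes called lower, a share not matched for level). A negative difference was found in 11 of 13 (84.6%, against 51.2%), and the median was -0.17. PRTN3, ELANE and CFD are neighbours in 1 cluster on chromosome 19. AZU1 of the same cluster stood at 971.5, 524.5, 924.3 and 788 CPM against 1007, 546.6, 987.2 and 914.9 CPM (adjusted p = 0.643), and MPO, myeloperoxidase, at 54.1, 27.8, 51.8 and 26.6 CPM against 47, 32.1, 40.5 and 30.8 CPM (0.932). ELANE and CFD did not pass in any of the fits without a library, and PRTN3 not without either AAVS1 KO library (adjusted p up to 0.0814).

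LAPTM5, a lysosomal membrane protein of blood cells, was the only one of 17 identity genes to pass, at 116.9, 382.5, 114.4 and 258.7 CPM against 166.7, 499.4, 160.4 and 313.1 CPM (-0.40 ± 0.0833, SE). CD74, the invariant chain of HLA class II, stood at 23.8, 57.3, 28.8 and 84.4 CPM against 47.7, 90, 54.3 and 106.1 CPM (-0.65 ± 0.145, SE; adjusted p = 0.0364), while HLA-DRB1, HLA-DPA1 and HLA-DPB1 had no count in any library. Neither LAPTM5 nor CD74 passed in any fit without a library. Of myeloid transcription factors (20 tested), monocyte surface genes (16), HLA class I genes (14), proliferation genes (24), interferon-stimulated genes (23) and glycolysis genes (20), 0 of 117 were called by edgeR (14 at an unadjusted p under 0.05, 7 by DESeq2 and 5 by limma-voom), and their medians lay between -0.10 and 0.10. FLT3 and MEIS1, genes of the leukaemic stem cell programme, did not pass at differences of 0.07 and 0.09 (adjusted p = 0.859 and 0.819).

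Genes of translation and respiration had negative medians. Of 81 tested cytosolic ribosomal protein genes 63 had a negative difference (77.8%, against 51.2% of all tested protein-coding genes), at a median of -0.12. Lower calls numbered 6 (7.41%, against 0.377%, again not matched for level), namely RPL8, RPS2, RPS9, RPLP1, RPLP0 and RPL12, and none of the list was called higher. RPL8 stood at 978.4, 5511, 1014 and 3644 CPM under MOLM13 and 1363, 7214, 1360 and 4188 CPM under OCI-AML4 (-0.37 ± 0.0528, SE), with HOTSCRAMBL KO highest and the AAVS1 libraries lowest under both labels. RPS2, at 249.4, 960.8, 235.2 and 630 CPM against 334.1, 1254, 305.1 and 801.8 CPM (-0.38 ± 0.0659, SE), also had HOTSCRAMBL KO highest and the AAVS1 libraries lowest under both labels. RPL8 did not pass in limma-voom (adjusted p = 0.333) and passed in 6 of the 8 fits without a library, and the other 5 in 2 of 8. Many ribosomal protein genes have processed pseudogenes, and reads that fit both were lost. EEF2, the elongation factor that moves the ribosome, named after its values were seen, was also lower (-0.31 ± 0.0516, SE).

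Of the 13 messenger RNAs of the mitochondrial genome 12 had a negative difference (92.3%, against 51.2% of protein-coding genes). Of the 13, 9 were lower in 4 of 4 pairs (69.2%, against 9.58%), and 4 passed (30.8%, against 0.377%). These backgrounds are not matched for level. MT-ND6, the only one read from the light strand, stood at 664.6, 1667, 689.4 and 888 CPM against 958.4, 2178, 997.5 and 1009 CPM (-0.41 ± 0.0637, SE). Strand was not used in counting, so reads from the other strand over MT-ND6 are not kept apart. MT-ATP8, at 146, 374.3, 160.6 and 342.1 CPM against 216.1, 506.1, 210 and 431.4 CPM, differed by -0.42 ± 0.0786 (SE), MT-CO2 by -0.27 ± 0.0536 (SE) and MT-ND1 by -0.23 ± 0.0539 (SE). MT-ND5 stood at 8852, 28054, 8596 and 6012 CPM against 8504, 27476, 8754 and 6130 CPM (adjusted p = 0.981). MT-ATP8 overlaps MT-ATP6, and reads over both were not counted. Nuclear genes of oxidative phosphorylation had a median of -0.14, with 56 of 78 negative (71.8%), 10 lower in 4 of 4 pairs (12.8%, near the 9.58% of all tested protein-coding genes), and 0 called by edgeR (9 at an unadjusted p under 0.05, 2 by DESeq2 and 0 by limma-voom). The 22 mitochondrial transfer RNAs and 2 ribosomal RNAs gave 0 calls in edgeR (3 unadjusted, 1 by DESeq2, 0 by limma-voom). MT-CO2 and MT-ND1 did not pass in limma-voom (adjusted p = 0.36 and 0.662), and of the 8 fits without a library MT-ND6 and MT-CO2 passed in 2, MT-ATP8 in 1 and MT-ND1 in 0.

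**Figure D4:**
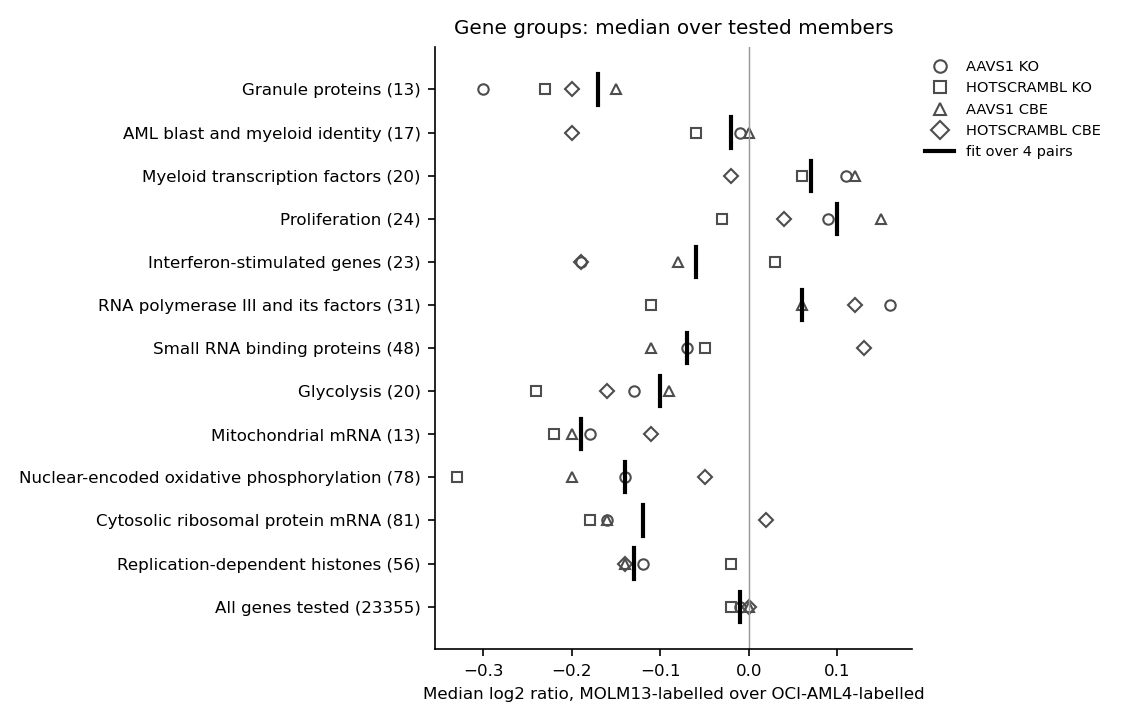
Median log2 ratio of the MOLM13-labelled over the OCI-AML4-labelled library, over the tested members of 12 gene groups and over all tested genes, with an open symbol per edit and a black bar for the fit over the 4 pairs. Mitochondrial mRNA, granule, glycolysis, nuclear oxidative phosphorylation and histone genes are among the groups left of 0 in each pair, and the medians over all tested genes lie within 0.02 of 0.

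The named genes that were higher under MOLM13 rose by 0.26 to 0.63 on the log2 scale. CREBZF, a basic leucine zipper transcription factor, stood at 352.6, 210.9, 358.4 and 154.8 CPM against 211.3, 170.2, 220.8 and 92.4 CPM (0.63 ± 0.0909, SE). CDC37, the co-chaperone that brings kinases to HSP90, stood at 674.4, 705.1, 639.8 and 281.6 CPM against 425.8, 532.3, 434.2 and 225.8 CPM (0.49 ± 0.0727, SE). Both were lowest in the HOTSCRAMBL CBE pair, and the groups overlapped. PCNT, the centrosome scaffold pericentrin, rose by 0.45 ± 0.079 (SE), ANKRD11, a chromatin regulator, by 0.37 ± 0.0626 (SE), and MACF1, which links actin and microtubules, by 0.35 ± 0.0643 (SE). RNF213, a very large ubiquitin ligase, stood at 372.5, 446.7, 383.4 and 352.1 CPM against 282.6, 313.8, 252.8 and 317.4 CPM, without overlap (0.41 ± 0.0808, SE). GOLGB1, the Golgi tether giantin, rose by 0.40 ± 0.0778 (SE), CUL4A, a cullin, by 0.26 ± 0.0494 (SE), and DEF6, an exchange factor of immune cells, by 0.48 ± 0.0842 (SE). PCNT and DEF6 differed least in the HOTSCRAMBL CBE pair, by 0.10 and 0.14. None of the 11 named genes on this side passed in all 8 fits without a library.

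The called genes differed in length. The median exonic length was 8166 bases in the 33 protein-coding genes called higher, 4004 in the 50 called lower and 5219 in those not called. Over above-median protein-coding genes the median log2 difference was -0.14 at 300 to 1000 bases (56 genes), -0.13 at 1000 to 2000 (212), -0.05 at 2000 to 4000 (1159), 0.0 at 4000 to 8000 (2931), 0.05 at 8000 to 16000 (1859) and 0.06 above 16000 (404). Of the genes above 16000 bases 10 were called higher and 0 lower by edgeR. Of those of 300 to 1000 bases 0 were called higher and 4 lower. These 4 were FTL, named after its values were seen, and MT-ND6, MT-CO2 and MT-ND1, already given with the mitochondrial messenger RNAs. Over all tested protein-coding genes 0.249% were called higher and 0.377% lower, shares not matched for level. MT-ATP8, at 207 bases, was called lower too and lies below these groups. Each pair lay below 0 in the shortest group, at -0.09 to -0.21, and above 0 in the longest, at 0.06 to 0.10, although the order of neighbouring groups was not the same in all pairs. The 4 called mitochondrial messenger RNAs have 207 to 956 bases and the 6 called ribosomal protein genes 2159 to 4304 bases of annotated exons, and the part of length in their differences was not tested.

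**Figure D5:**
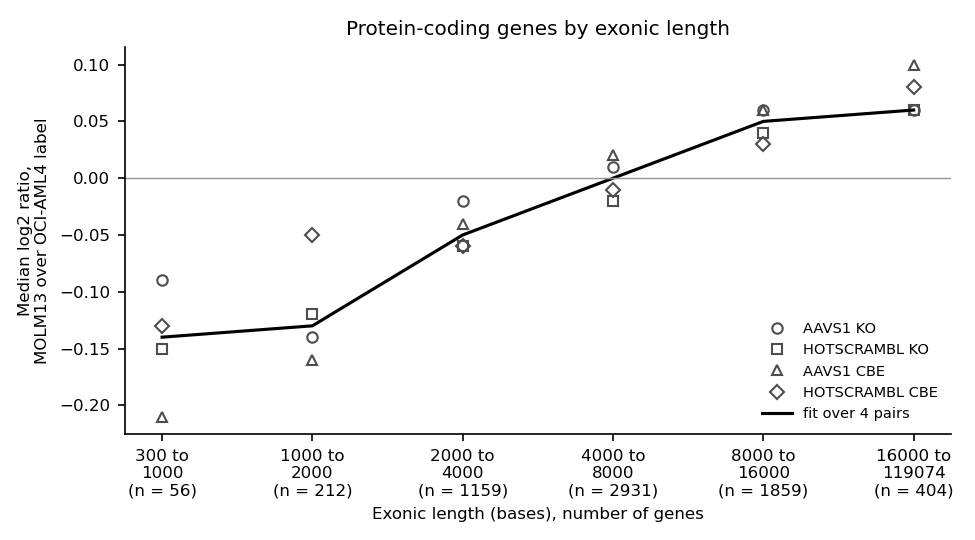
Median log2 ratio of the MOLM13-labelled over the OCI-AML4-labelled library in 6 groups of above-median protein-coding genes by exonic length in bases, with an open symbol per edit and a black line for the fit over the 4 pairs. The line runs from -0.14 in the shortest group to 0.06 in the longest, and all 4 pairs lie below 0 in the 3 shortest groups and above 0 in the 2 longest.

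Among the other RNAs 6 passed, 2 higher (0.0218%) and 4 lower (0.0436%), with 586 (6.38%) at an unadjusted p under 0.05. The groups did not overlap for 3 of the 6, against 2.46% of those tested. MIR142HG, the host transcript of the blood cell microRNA miR-142, stood at 164.6, 74.7, 169.2 and 97.4 CPM under MOLM13 and at 358.1, 149.1, 338.7 and 203.2 CPM under OCI-AML4. The pair differences lay in a narrow range, from -1.12 to -1.0, and the difference was -1.05 ± 0.089 (SE), 2.07-fold, with an adjusted p of 4.29e-08. SNHG7, a snoRNA host transcript, stood at 30.1, 34.6, 29.6 and 39.9 CPM against 80, 51.7, 66.5 and 40.6 CPM (-0.81 ± 0.186, SE), with almost no difference in the HOTSCRAMBL CBE pair. The unnamed genes ENSG00000288873 and ENSG00000241269 were lower, by -1.59 ± 0.233 (SE) and -0.51 ± 0.1 (SE), and ENSG00000242588 and ENSG00000264635 higher, by 0.31 ± 0.0694 (SE) and 2.74 ± 0.632 (SE). MIR142HG and ENSG00000288873 passed in each of the 8 fits without a library, SNHG7 in 2 and the other 3 in 0. Each of the 6 overlaps another annotated gene, and since strand was not used in counting, reads of either partner cannot be told apart. An overlapping gene was also present for 29 of 33 protein-coding genes called higher and 34 of 50 called lower. Among called small RNAs this held for 11 of 19 higher and 5 of 6 lower. The share over all tested genes is not given here, so no excess among called genes can be read from these counts.

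The difference between the labels was also asked for within editors and within targets. The test of a change of the label difference between KO and CBE passed 0 of 23355 genes in edgeR (918, 3.93%, at an unadjusted p under 0.05) and 95 (0.407%) in DESeq2. That between HOTSCRAMBL and AAVS1 passed 0 in edgeR (961, 4.11%, unadjusted) and 66 (0.283%) in DESeq2. With 2 pairs at a time, edgeR called 3 genes in KO, 0 in CBE, 1 in AAVS1 and 0 in HOTSCRAMBL libraries.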

How the data were processed

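RNA pulled down by ChIRP was sequenced in 8 libraries, 4 under each cell line label. The authors deposited 1 table of raw counts per gene, made with featureCounts 2.0.6 on Ensembl 112 (GRCh38), per the file headers. The options in the header count read ends of pairs without strand, and leave out reads that fit several places or several genes. Of counts from 1 to 20, between 71.8% and 74.9% per library were even, so low counts mostly rest on fewer fragments than their number. The aligner is not given in the sources used here. Total counts per library were 20548300 to 37970163, and genes at about 1 CPM or less in a label (PHC1, PDGFC, VTRNA2-1, ENSG00000264635, CD34 and KIT) rest on few counts.

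Counts were analysed with edgeR 4.0.16 in R 4.3.3 (TMM scaling, filterByExpr with a minimum count of 10, quasi-likelihood test with robust estimation). The model held the edit and the label as terms, and adjustment was by Benjamini-Hochberg over all tested genes; 0.05 was the threshold. Only autosomal and mitochondrial genes were reported, 59987 of 63140. Samples were grouped by the line in their titles and paired by the edit in their titles. Nothing says that the libraries of a label come from separate cultures. Shares of counts were compared with an exact within-pair permutation test, two-sided. The members and lists were chosen with earlier results of these data known. Named genes were those past the threshold and alike in direction in 4 of 4 pairs, by smallest p (up to 8 per direction among small RNAs, 10 among protein-coding and 4 among other genes), plus every list member that passed, or the one with the smallest p. Sequences are GENCODE v29 transcripts, found for 925 of 927 tested small RNAs and aligned with Biopython 1.88. Some sequences are not reported here.

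Alternatives were other scalings, no filter or a stricter one, DESeq2 1.42.0, limma-voom (limma 3.58.1), no term for the edit, subsets of libraries, each library left out, and other denominators of shares. The older edgeR estimator and a small RNA class by GENCODE biotype were added after seeing the data, as were family shares without the most abundant gene. The count model was tested on simulated data.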

Additional observations from a re-analysis of the deposited data

Results flagged for a closer look

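In 12 of 178 groups of 4 libraries tested, 1 library lay far from the other 3, its gap to the nearest being above Dixon's critical share of the range. Chance gives about 1 in 20, not far below this. The 4 libraries of a group differ in edit, so an odd library cannot be told apart from an effect of its edit. Most of the 12 were HOTSCRAMBL CBE libraries. Under the MOLM13 label this library was the lowest for RN7SL1, at 12401 CPM against 17490 to 18437 CPM in the others, and for CDC37, at 281.6 CPM against 639.8 to 705.1 CPM. It was the highest for RNU5B-1, at 66.1 CPM against 36.5 to 38 CPM, and for MT-CO2, at 3195 CPM against 1819 to 1859 CPM.

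The Cajal body RNA share of HOTSCRAMBL CBE was the lowest under both labels, 0.0853% under MOLM13 and 0.0625% under OCI-AML4, and its replication-dependent histone share the highest under both, 0.48% and 0.527%. The C/D box snoRNA share under OCI-AML4 was also lowest there, at 0.204% against 0.31% to 0.328%.

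The HOTSCRAMBL KO library stood apart under the OCI-AML4 label for PCNT, lowest at 312.5 CPM against 472.5 to 502.4 CPM. The same library was lowest for ELANE, at 188.9 CPM against 316.4 to 340.8 CPM, and highest for MT-ND6, at 2178 CPM against 958.4 to 1009 CPM.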

How the results depend on the processing

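Counts of calls are given in the order all autosomal and mitochondrial genes, small RNA, protein-coding and other RNA, with 114, 25, 83 and 6 as reported. DESeq2 gave 695, 46, 520 and 129, and it called 95 and 66 genes for a change of the label difference between editors and between targets, where edgeR called 0. Limma-voom gave 256 in all, 218 protein-coding and 13 other, and the older edgeR estimator 188, 146 and 15. No filter raised other RNA to 10. Without the pairing by edit (no replicate block) 2, 2, 0 and 0 passed. KO libraries alone gave 3, 3, 0 and 0, AAVS1 libraries alone 1, 1, 0 and 0, and CBE or HOTSCRAMBL libraries alone 0 in each class; the cause was not tested beyond the smaller number of libraries. Leaving out 1 library gave 26 to 65, 16 to 18, 8 to 45 and 2 to 3. The small RNA share difference of -0.59 points lay between -0.774 and -0.374 without a library and became 0.577 without RMRP. Without its most abundant gene the mean log2 ratio of a family's share went from 0.82 to -0.06 for 7SK, from 1.41 to 0.76 for 5S and from 0.55 to 0.32 for 7SL.

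Of the 65 named called genes none changed sign in any of the 21 alternatives of each, which their choice largely fixed in advance. All had moved the same way in 4 of 4 pairs, and the alternatives reuse those libraries. VTRNA2-1, a vault RNA gene at about 1 CPM that passed in none, stood at 0.37 and changed sign in DESeq2 (-0.30), the older estimator (-0.31), KO libraries (-0.35) and AAVS1 libraries (-0.49), and ran from -0.70 to 0.76 without a library.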

Other observations

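Genes of the Polycomb repressive complexes were listed after AEBP2 and PHC1 had been seen, so their values are descriptive. BMI1, a core subunit of PRC1, stood at 60.2, 27, 57.2 and 70.8 CPM under MOLM13 and at 74.4, 62.8, 90.4 and 123 CPM under OCI-AML4, lower in 4 of 4 pairs (-0.70 ± 0.138, SE; adjusted p = 0.0107, edgeR). The groups overlapped. EZH2, the methyltransferase of PRC2, stood at 126.1, 73.3, 109.1 and 88.8 CPM against 77.3, 51.4, 88.2 and 76.7 CPM and did not pass (0.42 ± 0.122, SE; adjusted p = 0.161), although its value was higher under MOLM13 in 4 of 4 pairs. SUZ12, a PRC2 scaffold subunit, did not pass either (0.30 ± 0.141, SE; adjusted p = 0.537).

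PRIMPOL, a primase and polymerase that restarts stalled replication, was the only protein-coding gene called higher by 2-fold or more. It stood at 26.9, 19, 19.2 and 16.5 CPM under MOLM13 and at 10.1, 10.5, 8.48 and 5.71 CPM under OCI-AML4, without overlap (1.25 ± 0.271, SE; adjusted p = 0.0286, edgeR). PDGFC, a growth factor gene, stood at 0.157, 0, 0.06 and 0.388 CPM against 3.44, 0, 2.05 and 6.06 CPM (adjusted p = 0.0405, edgeR), so its difference rests on 3 pairs at very low level.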
